A study of Mus musculus with 8 samples.

Results

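The antimicrobial and Paneth-cell-type secretory genes of the gut epithelium were followed in mouse colon tumours through 9 members: Lyz1, Pla2g2a, Ang4, Itln1, Reg3b, Reg3g, Reg4, Dmbt1 and Lypd8. They were chosen by symbol, and all 9 were found among the 38355 genes counted. The tumours came from mice of 2 genotypes given azoxymethane, a carcinogen that produces colon tumours: 4 Trp53ΔIECAktE17K tumours and 4 Trp53ΔIEC tumours, each a whole tumour sequenced as polyadenylated RNA. In both genotypes Trp53, the tumour suppressor p53, is labelled as deleted in intestinal epithelial cells (ΔIEC), and Trp53ΔIECAktE17K mice also carry AktE17K, an activating substitution of the kinase Akt. The labels do not state the Cre driver, the locus that carries AktE17K, or the strain, age and sex of the mice. Nothing in the labels says whether the tumours of a genotype were raised or processed separately, so such a difference could not be told from genotype. The p-values set the genotype difference against the spread between tumours of the same genotype. Each tumour was counted as a separate mouse.

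Paneth cells sit at the crypt base of the small intestine and secrete granules of lysozyme, α-defensins, secreted phospholipase A2, angiogenins and lectins into the crypt lumen. The normal colon has few or no Paneth cells, and there goblet cells, deep crypt secretory cells and surface colonocytes carry out related secretion, while Paneth-like cells can appear in inflamed or neoplastic colon. Reg3b and Reg3g, C-type lectins that bind bacterial cell walls, are induced in epithelium through interleukin-22 and STAT3, and Dmbt1 and Lypd8 hold bacteria away from the epithelial surface.

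Reg3b and Reg3g lie on the same chromosome, with Reg3a, Reg2 and Reg1 between them. Their promoters are shown because each gene was the most similar to the other in level across the tumours. Both are 300 bases of RefSeq sequence on build GRCm38.p6, 5′ to 3′ in the direction of transcription, with 250 bases before and 50 bases from the start site that RefSeq gives. Capitals mark the longest run of bases that both share, 29 bases at positions 231 to 259 of each. Reg3b is given for chr6:78370635-78370934 on the plus strand and Reg3g for chr6:78468825-78469124 on the minus strand. The RefSeq start of Reg3b is at 78370885, whereas the first GENCODE M21 transcript begins at 78370657, so most of the Reg3b window is transcribed by that annotation; for Reg3g the starts are at 78468874 and 78468872.
Reg3b: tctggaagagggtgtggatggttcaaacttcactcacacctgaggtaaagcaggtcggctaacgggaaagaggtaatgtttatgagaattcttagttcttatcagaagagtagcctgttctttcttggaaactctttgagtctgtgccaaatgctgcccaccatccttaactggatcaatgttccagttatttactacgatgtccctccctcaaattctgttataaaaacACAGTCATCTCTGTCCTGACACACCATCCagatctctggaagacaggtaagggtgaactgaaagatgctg
Reg3g: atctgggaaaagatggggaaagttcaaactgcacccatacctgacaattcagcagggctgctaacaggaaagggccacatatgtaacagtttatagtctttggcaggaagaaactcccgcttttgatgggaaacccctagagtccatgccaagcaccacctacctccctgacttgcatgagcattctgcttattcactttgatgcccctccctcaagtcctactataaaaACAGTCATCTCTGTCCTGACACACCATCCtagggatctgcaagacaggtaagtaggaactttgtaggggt
In an end-to-end alignment that allowed gaps, 210 bases were identical, or 70% of the 300. A TATAAAA run stood once in each, just before the capitals, and was found on either strand in 1801 of 32851 RefSeq promoters of this length (5.48%) and in no other of the 7 members that had a promoter entry. TTCNNNGAA, the palindromic pattern that STAT factors are known to bind, was present once in Reg3b and was not found in these 300 bases of Reg3g. That pattern stood in 2726 of the 32851 promoters (8.3%), Ang4 among them. Pla2g2a and Dmbt1 had no promoter entry. A match to a pattern is a description of the letters and does not show that a factor binds.

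Counts of reads assigned to genes totalled 18572180 to 26268547 per tumour, and 21173 to 22597 genes had a read. Levels are given as CPM, each gene's count relative to the assigned reads of its library, scaled by TMM, a library scaling that assumes most genes do not change. Trp53 itself had 24.8, 29.5, 37.1 and 24.8 CPM in Trp53ΔIECAktE17K tumours (replicates 1 to 4) and 25.8, 25.2, 24.2 and 20.8 CPM in Trp53ΔIEC tumours. Its level is no check of the deletion, since whole tumours hold stroma and leukocytes in which Trp53 is not labelled as deleted. Across all 16539 genes tested with edgeR's quasi-likelihood F-test, 694 passed a Benjamini-Hochberg adjusted p threshold of 0.05, which is 4.2%; 569 (3.44%) were higher and 125 (0.756%) were lower in Trp53ΔIECAktE17K tumours. That count depended on single tumours. It was 180, 289, 665 and 949 without Trp53ΔIECAktE17K replicate 1, 2, 3 or 4. Without Trp53ΔIEC replicate 1, 2, 3 or 4 it was 254, 74, 86 and 79.

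None of the 9 genes passed that threshold, and in all 9 the levels of the 2 genotypes overlapped. The corresponding shares of all tested genes are 4.2% passing and 14.2% not overlapping. By an unadjusted p under 0.05, edgeR placed 1 of the 9 (Pla2g2a) past the threshold, against 20.8% of all tested genes. DESeq2 called 1 of the 9, Pla2g2a with an adjusted p of 0.016, where it called 13.2% of all genes, and limma-voom called 0, where it called 3.13%. By unadjusted p under 0.05, DESeq2 placed 2 of the 9 past the threshold (24.7% of all genes) and limma-voom 0 (20.7%). The edgeR count at an unadjusted p under 0.05 turned on single tumours. It was 4 of 9 (Pla2g2a, Itln1, Lypd8 and Dmbt1) without Trp53ΔIECAktE17K replicate 4, against 23.8% of all genes, and 0 without Trp53ΔIECAktE17K replicate 1 or 2 or Trp53ΔIEC replicate 1, 2 or 3. Fold changes were positive for 4 genes and negative for 5, with a median log2 fold change of −0.31 over the 9 and 0.01 over all tested genes. The 95% intervals were wide, so a missed threshold does not show that the genotypes have the same level.

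**Figure D1:**
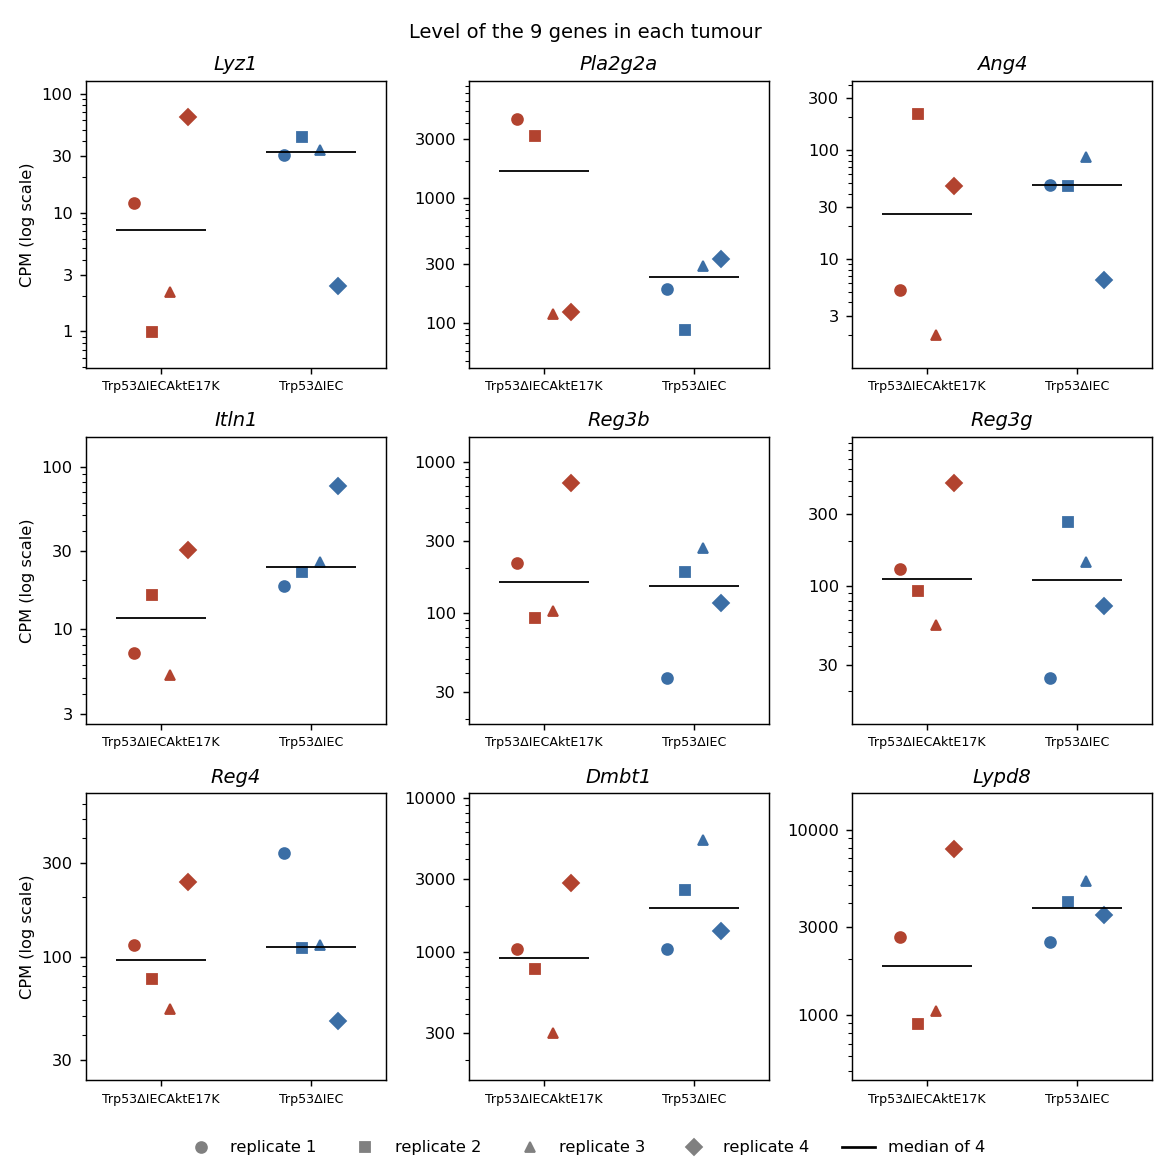
Level of each of the 9 genes in each tumour, in CPM on a log scale, with Trp53ΔIECAktE17K tumours left (red) and Trp53ΔIEC tumours right (blue); marker shape gives the replicate and the line the median of 4. The groups overlap for every gene, and Pla2g2a has 2 Trp53ΔIECAktE17K tumours at 3174 and 4359 CPM and 2 at 119.5 and 122 CPM.

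Among the Paneth granule enzymes, Lyz1 (ENSMUSG00000069515, chr10:117287797-117292868, minus strand, GRCm38), which encodes the lysozyme of Paneth cells, had 12.1, 0.988, 2.14 and 64.3 CPM in Trp53ΔIECAktE17K replicates 1 to 4, against 30.8, 43.4, 33.7 and 2.42 CPM in Trp53ΔIEC replicates 1 to 4. The low tumours were Trp53ΔIECAktE17K replicates 2 and 3 and Trp53ΔIEC replicate 4, and the highest was Trp53ΔIECAktE17K replicate 4. Means were 19.9 ± 30 CPM in Trp53ΔIECAktE17K tumours and 27.6 ± 17.6 CPM in Trp53ΔIEC tumours (SD, n = 4 each). The log2 fold change was −0.47 ± 1.23 (SE; 95% interval −3.29 to 2.34; edgeR adjusted p = 0.866), and it was −2.45 without Trp53ΔIECAktE17K replicate 4 (adjusted p = 0.24). Lyz2, the closely related lysozyme of macrophages and neutrophils, had 614, 620.5, 221 and 474 CPM in Trp53ΔIECAktE17K tumours, against 226, 481, 536 and 228 CPM in Trp53ΔIEC tumours. Lyz2 was above Lyz1 in every tumour of both genotypes. Of the 1214 windows of 50 bases in Lyz1 transcripts, 195 (16.1%) are also present in Lyz2, so reads from those stretches could have been left uncounted or placed in either gene.

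Pla2g2a (ENSMUSG00000058908, chr4:138831857-138835186, plus strand) encodes the secreted group IIA phospholipase A2, which hydrolyses bacterial membranes and is a known modifier of intestinal polyp number in mice. It had 4359, 3174, 119.5 and 122 CPM in Trp53ΔIECAktE17K replicates 1 to 4, against 187, 88.1, 286 and 329.6 CPM in Trp53ΔIEC replicates 1 to 4. Replicates 1 and 2 of Trp53ΔIECAktE17K were far above all other tumours, and replicates 3 and 4 lay within the Trp53ΔIEC range. Means were 1944 ± 2159.8 CPM in Trp53ΔIECAktE17K tumours and 223 ± 108 CPM in Trp53ΔIEC tumours (SD, n = 4 each), a log2 fold change of 3.13 ± 1.18 (95% interval 0.44 to 5.81) with an edgeR unadjusted p of 0.0275 and an adjusted p of 0.176. The annotation used for names (GENCODE M21) types the gene as a polymorphic pseudogene, because some inbred strains carry a disrupted allele. The counts do not show which allele a tumour carried.

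The 2 high tumours share one label: the titles of Trp53ΔIECAktE17K replicates 1 and 2 carry the letter A, while those of the other 6 tumours carry B, and no label explains that letter. The names of the deposited tables instead give A to all 4 Trp53ΔIECAktE17K tumours, so the split of 2 tumours against 6 rests on the titles alone. Within the B-lettered tumours alone, the Pla2g2a log2 fold change of Trp53ΔIECAktE17K over Trp53ΔIEC was −0.91 (edgeR adjusted p = 0.502), and with the letter as a term beside genotype it was −0.88 (adjusted p = 0.465). In that fit the letter's own coefficient, A over B, was 4.96 ± 0.64 on the log2 scale (SE), the second smallest p of all 16539 genes (8.46e-05), with an adjusted p of 0.7; no gene passed the adjusted threshold for the letter (0%), and 8 of the 9 had an adjusted p of 0.982. That coefficient and the fit on B-lettered tumours alone were chosen after the data were seen. By the titles, letter A occurs in 1 genotype only, so a difference of letter and one between mice of that genotype cannot be told apart. By the table names, letter and genotype coincide, and these fits then separate nothing but the 2 high tumours from the rest.

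The other 5 measured genes of the secreted phospholipase A2 cluster around Pla2g2a on chromosome 4 were added after their values were seen, to show whether neighbours share the pattern. Pla2g2f was highest in Trp53ΔIECAktE17K replicate 1 at 90.2 CPM, against 12.1 to 26 CPM in Trp53ΔIEC tumours, but replicate 2 had 17.9 CPM. Pla2g5, whose span contains Pla2g2a on the opposite strand without shared exon bases, had 10.1, 15.8, 4.62 and 25.3 CPM in Trp53ΔIECAktE17K tumours and 6.74, 7.45, 22 and 12.5 CPM in Trp53ΔIEC tumours. Pla2g2c reached at most 4.12 CPM in any tumour, Pla2g2d 36.3 CPM and Pla2g2e 19.8 CPM. None of the 5 passed the threshold (edgeR adjusted p 0.267 to 0.878), and none had both letter A tumours above the rest.

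**Figure D2:**
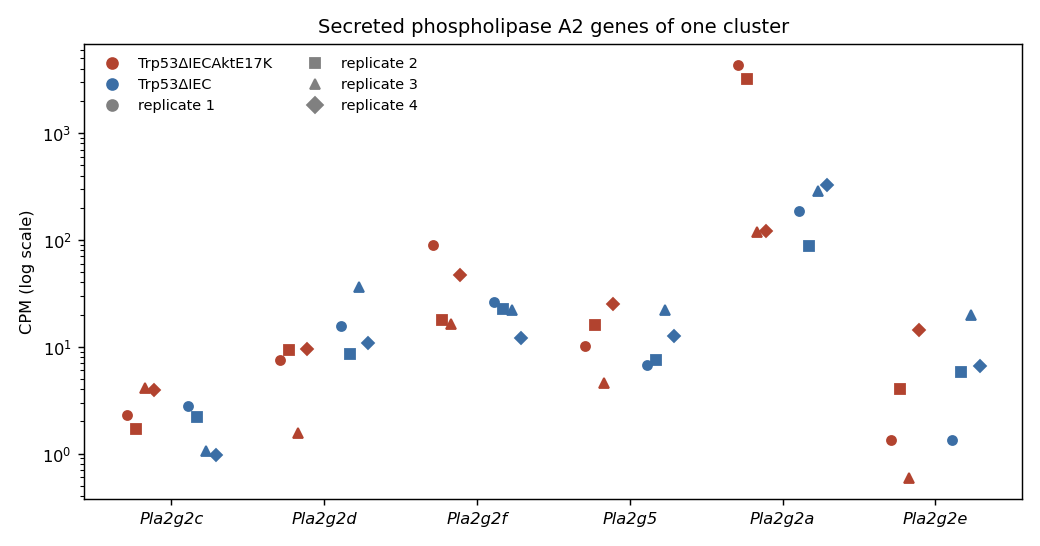
Secreted phospholipase A2 genes of the chromosome 4 cluster, in CPM on a log scale, with Trp53ΔIECAktE17K tumours left (red) and Trp53ΔIEC tumours right (blue) within each gene. Pla2g2d is drawn before Pla2g2f, although Pla2g2f has the lower position on the chromosome. Pla2g2a has 2 Trp53ΔIECAktE17K tumours at 3174 and 4359 CPM, while its neighbours reach at most 90.2 CPM in any of the 8 tumours.

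Ang4 (ENSMUSG00000060615, chr14:51763878-51773590, minus strand), an angiogenin of Paneth and goblet cells with microbicidal activity, had 5.16, 216, 2.02 and 46.6 CPM in Trp53ΔIECAktE17K replicates 1 to 4, against 48.1, 47, 87.5 and 6.47 CPM in Trp53ΔIEC replicates 1 to 4. A single tumour, Trp53ΔIECAktE17K replicate 2, was the highest and its group mates 1 and 3 were the lowest. The highest tumour was 107 times the lowest within Trp53ΔIECAktE17K and 13.5 times within Trp53ΔIEC. The log2 fold change was 0.51 ± 1.28 (95% interval −2.4 to 3.43; edgeR adjusted p = 0.859), and it was −1.43 without Trp53ΔIECAktE17K replicate 2. Of 660 windows of 50 bases, 31 (4.7%) are shared with the angiogenins Ang5 and Ang2.

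Itln1 (ENSMUSG00000038209, chr1:171518122-171535294, minus strand), intelectin 1, a lectin of Paneth and goblet cells that binds microbial sugars, had 7.11, 16.2, 5.21 and 30.5 CPM in Trp53ΔIECAktE17K replicates 1 to 4, against 18.5, 22.4, 25.7 and 75.8 CPM in Trp53ΔIEC replicates 1 to 4. Replicates 1, 2 and 3 of Trp53ΔIECAktE17K were below all Trp53ΔIEC tumours, and replicate 4 lay inside their range. Means were 14.7 ± 11.5 CPM in Trp53ΔIECAktE17K tumours and 35.6 ± 26.9 CPM in Trp53ΔIEC tumours (SD, n = 4 each), with a log2 fold change of −1.27 ± 0.65 (95% interval −2.77 to 0.23; edgeR unadjusted p = 0.0864, adjusted p = 0.312). It was −1.92 without Trp53ΔIECAktE17K replicate 4 (adjusted p = 0.123) and −0.59 without Trp53ΔIEC replicate 4 (adjusted p = 0.633).

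The other Paneth markers set these genes in context. Of 20 listed (Lyz1, Pla2g2a, Ang4 and Itln1 among them), 12 passed the filter on low counts. Of these 12, edgeR called 0 (4.2% of all tested genes), with 4 at an unadjusted p under 0.05 (20.8% of all tested genes). DESeq2 gave an adjusted p for 11 of them and called 3 (Pla2g2a, Clps and Mmp7), against 13.2% of all genes. By limma-voom 0 were called (3.13% of all genes). The median log2 fold change of the 12 was −1.11. The α-defensins, which define Paneth cells, were low: 5 of 11 (Defa3, Defa5, Defa20, Defa21 and Defa23) had no read in any tumour, which allows up to 0.0162 CPM over the 8 libraries, counting error only. Summed, the 11 had 1.23, 0.7, 1.18 and 15.3 CPM in Trp53ΔIECAktE17K tumours, against 1.68, 16.3, 15.6 and 18.4 CPM in Trp53ΔIEC tumours. Near-identical copies of defensin genes lose reads that map to several positions, so these sums are lower bounds on the RNA present. Other Paneth markers were not low throughout: in Trp53ΔIEC replicate 1, Mmp7 had 658 CPM and the mucosal pentraxin Mptx2 1336 CPM. In every other tumour Mptx2 was far lower, at 1.47 to 27.3 CPM, and Mmp7 had 10.2 to 401 CPM. The markers thus gave no single answer, and the 9 genes are described here as antimicrobial genes, with no cell type assigned.

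Mmp7 and Clps had the smallest edgeR p-values of the remaining Paneth markers; edgeR called neither and DESeq2 called both. Mmp7, matrilysin, which activates α-defensins in mouse Paneth cells and is also produced by tumour epithelium, had 119, 185, 10.2 and 125 CPM in Trp53ΔIECAktE17K tumours, against 658, 376, 401 and 211 CPM in Trp53ΔIEC tumours. Every Trp53ΔIECAktE17K tumour was below every Trp53ΔIEC tumour, as for 5.88% of all tested genes, with a log2 fold change of −1.90 ± 0.72 and an edgeR adjusted p of 0.18 (DESeq2 adjusted p 0.0412). Clps, colipase, had 2.99 ± 1.62 CPM in Trp53ΔIECAktE17K tumours and 0.93 ± 0.464 CPM in Trp53ΔIEC tumours (SD, n = 4 each), log2 fold change 1.67 ± 0.51, edgeR adjusted p 0.115 (DESeq2 adjusted p 0.027).

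Among the Reg lectins, Reg3b (ENSMUSG00000071356, chr6:78370657-78373466, plus strand) had 216, 93.2, 104 and 735 CPM in Trp53ΔIECAktE17K replicates 1 to 4, against 36.9, 187, 269.6 and 118 CPM in Trp53ΔIEC replicates 1 to 4. Reg3g (ENSMUSG00000030017, chr6:78466269-78468872, minus strand), which acts on Gram-positive bacteria, had 131, 92.9, 55.6 and 489 CPM in the same Trp53ΔIECAktE17K tumours, against 24.4, 267, 145 and 74.2 CPM in the Trp53ΔIEC tumours. Trp53ΔIECAktE17K replicate 4 was the highest tumour for both and Trp53ΔIEC replicate 1 the lowest for both. Log2 fold changes were 0.91 ± 0.78 for Reg3b (95% interval −0.87 to 2.7; edgeR adjusted p = 0.549) and 0.59 ± 0.83 for Reg3g (95% interval −1.31 to 2.49; adjusted p = 0.733). Both turned negative without Trp53ΔIECAktE17K replicate 4 (−0.16 for Reg3b and −0.47 for Reg3g).

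The ratio of Reg3b to Reg3g counts was 1.65, 1, 1.87 and 1.5 in Trp53ΔIECAktE17K replicates 1 to 4, against 1.51, 0.699, 1.86 and 1.58 in Trp53ΔIEC replicates 1 to 4. It stayed between 0.699 and 1.87 while Reg3b itself ran from 36.9 to 735 CPM. Each was the other's most similar gene among 13044 compared, at a root mean square difference of 0.46 on the log2 scale over the 8 tumours after each gene was centred on its mean. Neither gene shares a 50-base window with any other gene.

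Reg4 (ENSMUSG00000027876, chr3:98222156-98236748, plus strand), a Reg lectin of enteroendocrine and deep crypt secretory cells that is raised in colorectal tumours in humans, had 115, 76.9, 54 and 241 CPM in Trp53ΔIECAktE17K replicates 1 to 4, against 338, 111, 114 and 47.3 CPM in Trp53ΔIEC replicates 1 to 4. Its order of tumours differed from that of Reg3b and Reg3g: Trp53ΔIEC replicate 1 was the highest of all 8. The log2 fold change was −0.33 ± 0.64 (95% interval −1.79 to 1.13; edgeR adjusted p = 0.813) and was 0.41 without that tumour. The rest of the family was near 0: Reg3d had no read in any tumour, and Reg1, Reg2 and Reg3a reached at most 0.885 CPM.

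Dmbt1 and Lypd8 act at the epithelial surface. Dmbt1 (ENSMUSG00000047517, chr7:131032053-131121630, plus strand), a secreted scavenger receptor that agglutinates bacteria, had 1053, 785, 299 and 2806 CPM in Trp53ΔIECAktE17K replicates 1 to 4, against 1053, 2526, 5341 and 1379 CPM in Trp53ΔIEC replicates 1 to 4. The lowest tumour was Trp53ΔIECAktE17K replicate 3 and the highest Trp53ΔIEC replicate 3. The log2 fold change was −1.06 ± 0.72 (95% interval −2.71 to 0.59; edgeR adjusted p = 0.445). It was −1.86 without Trp53ΔIECAktE17K replicate 4 (adjusted p = 0.151) and −0.45 without Trp53ΔIEC replicate 3 (adjusted p = 0.784). Fgfr2 lies across the Dmbt1 span on the opposite strand, with no exon bases shared. Lypd8 (ENSMUSG00000013643, chr11:58379043-58390728, plus strand), a GPI-anchored protein of the colonic epithelium that binds bacterial flagella, had 2621, 892, 1048 and 7842 CPM in Trp53ΔIECAktE17K replicates 1 to 4, against 2486, 4094, 5307 and 3446 CPM in Trp53ΔIEC replicates 1 to 4. Trp53ΔIECAktE17K tumours spanned 8.8-fold and Trp53ΔIEC tumours 2.13-fold, with replicate 4 of Trp53ΔIECAktE17K above all others and replicates 2 and 3 below all others. The log2 fold change was −0.31 ± 0.66 (95% interval −1.82 to 1.2; edgeR adjusted p = 0.834), and −1.35 without Trp53ΔIECAktE17K replicate 4 (adjusted p = 0.123).

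**Figure D3:**
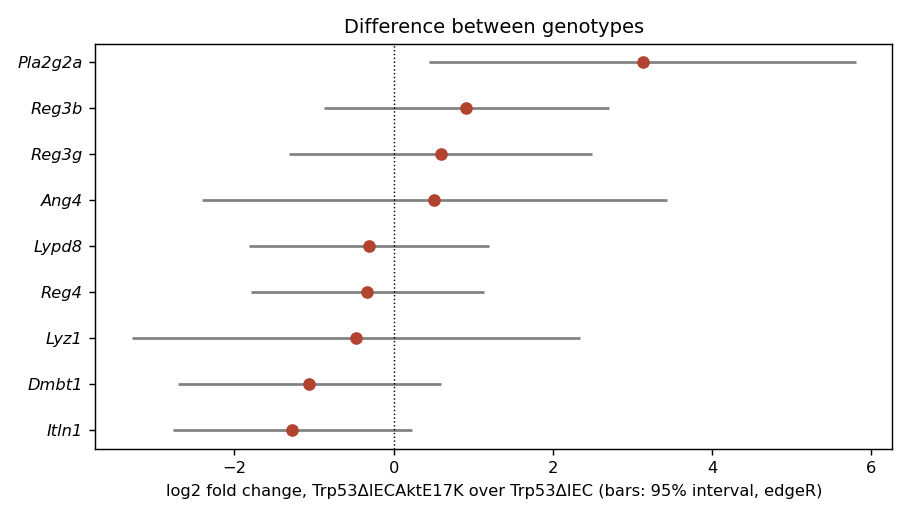
Log2 fold change of Trp53ΔIECAktE17K over Trp53ΔIEC for the 9 genes, with 95% intervals from edgeR. The interval of Pla2g2a, 0.44 to 5.81, lies above 0 before adjustment over all genes, and the other 8 intervals include 0.

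Expressed per kilobase of exon, so that genes can be ranked, the level of Lypd8 was the highest with a median of 2362 CPM per kb over the 8 tumours (range 694 to 6108), followed by Pla2g2a (254.8; 94.9 to 4697), Dmbt1 (172; 42.3 to 757), Reg3b (133; 32.3 to 644), Reg4 (110.3; 46.3 to 331), Ang4 (66; 2.84 to 304), Reg3g (53; 11.5 to 231), Itln1 (17.9; 4.56 to 66.4) and Lyz1 (17; 0.782 to 50.9). The ranges of all neighbours in this order overlapped. The order differed by genotype: within Trp53ΔIECAktE17K tumours the median was higher for Pla2g2a (1776 CPM per kb) than for Lypd8 (1429), while within Trp53ΔIEC tumours it was 254.8 for Pla2g2a and 2936 for Lypd8.

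The 9 genes varied between tumours of one genotype more than most genes did. The within-group standard deviation of log2 CPM was 1.04 to 2.43 for the 9, against a median of 0.37 over all tested genes, and all 9 lay above the 90th percentile, which 10% of tested genes exceed. Ang4, Lyz1 and Pla2g2a varied most, with 0.49%, 0.617% and 0.943% of tested genes having a larger standard deviation. The genes were chosen by symbol, with earlier results of these data known, and the share was not tested.

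**Figure D4:**
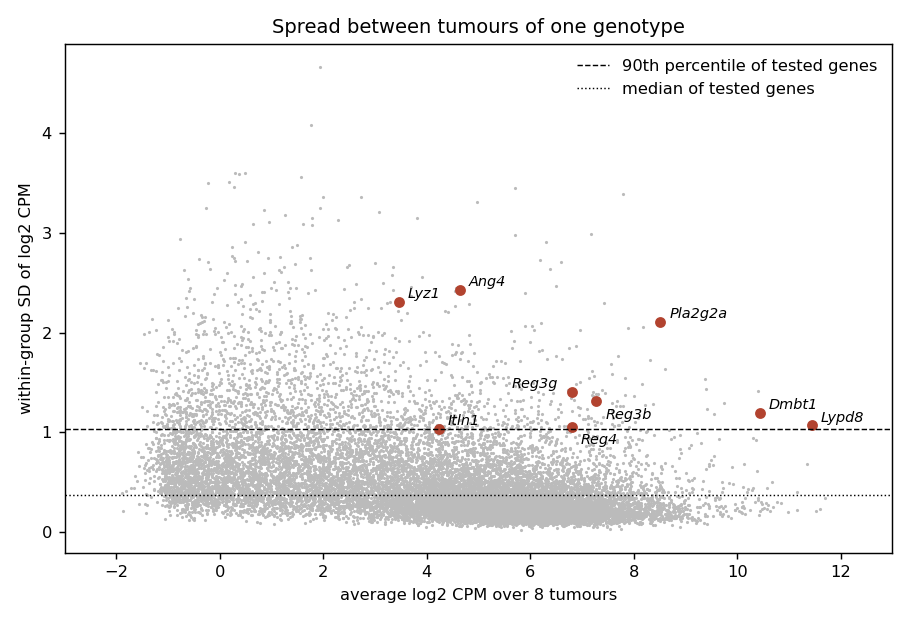
Within-group standard deviation of log2 CPM (y axis) against average log2 CPM over 8 tumours (x axis), 1 grey point per tested gene, the 9 genes in red. All 9 lie at or above the dashed line at the 90th percentile, with values of 1.04 to 2.43, while the dotted median is at 0.37.

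Within a genotype, the same tumour was often highest or lowest for several of the 9, and also for many of the most variable tested genes. Whether the 9 differ from those genes was not tested. Trp53ΔIECAktE17K replicate 4 was the highest of its group for 7 of the 9 genes, all but Pla2g2a and Ang4, and replicate 3 was the lowest for 6. Of the 1654 most variable tested genes, replicate 4 was the highest for 38.8% and replicate 3 the lowest for 50.6%. Within Trp53ΔIEC, replicate 3 was highest for 4 genes and replicate 1 lowest for 5, against 34.6% and 37.8% of the most variable genes. Summed over the 9 genes, levels were 8520.1, 5347, 1689 and 12376 CPM in Trp53ΔIECAktE17K replicates 1 to 4 and 4222, 7385, 11609 and 5478 CPM in Trp53ΔIEC replicates 1 to 4.

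**Figure D5:**
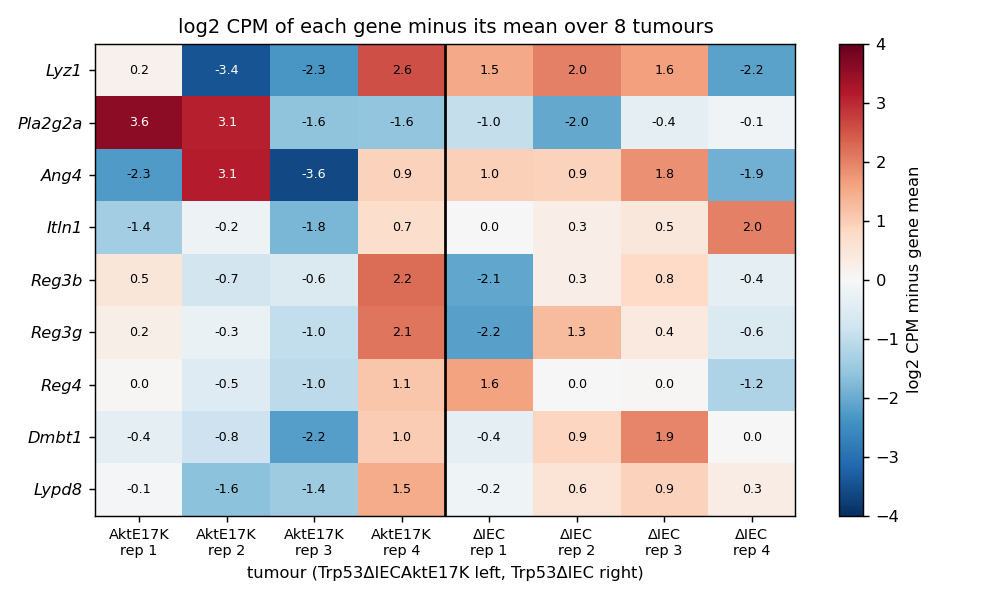
Log2 CPM of each of the 9 genes minus its mean over the 8 tumours, with the 4 Trp53ΔIECAktE17K tumours left of the line and the 4 Trp53ΔIEC tumours right of it. Trp53ΔIECAktE17K replicate 4 is red for 8 of the 9 genes and replicate 3 is blue for all 9, and the Pla2g2a row is red only in Trp53ΔIECAktE17K replicates 1 and 2.

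The genes most similar to each of the 9 across tumours, by the same root mean square measure, are a description with no test. For Lypd8 they were Myo15b (0.20), St6galnac6 (0.23) and Naip1 (0.25), and for Dmbt1 C6 (0.21), Xpnpep2 (0.26) and Ms4a8a (0.29). For Itln1 they were Sowaha (0.37), Hpcal4 (0.44) and Tmem125 (0.49), and for Reg4 Rap1gap (0.37), Cela1 (0.44) and Ano7 (0.45). After each other, Reg3b was closest to Ifit1bl2 (0.55) and Igkv10-96 (0.56), and Reg3g to Hdc (0.57) and H2-Q10 (0.60). The nearest genes of Lyz1 (Igkv4-72, 0.96), Pla2g2a (Foxc1, 1.00) and Ang4 (Cldn2, 1.06) were farther away.

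Among markers of other cells and tissues, those of stroma and heart muscle were mostly called higher by edgeR in Trp53ΔIECAktE17K tumours. Their part in the levels of the 9 genes was not tested. The heart muscle and hepatocyte lists describe RNA levels, and no such cell is assigned to the tumours. In bulk tissue, fewer cells of a type and less RNA per cell cannot be told apart. Over all tested genes, edgeR called 4.2%, DESeq2 13.2% and limma-voom 3.13%, and 20.8% had an edgeR unadjusted p under 0.05. Of 14 general epithelial genes, 13 had a negative log2 fold change, edgeR called 0 and 6 had an unadjusted p under 0.05 (median −0.46). DESeq2 called 4 of them lower (Epcam, Esrp1, Vil1 and Hnf4a) and limma-voom 0. Their summed level was 7919, 9607, 6685 and 15392 CPM in Trp53ΔIECAktE17K tumours, against 11828, 12666, 15309.7 and 14686 CPM in Trp53ΔIEC tumours. Epcam, an epithelial adhesion molecule, had 1279.9, 1803, 1101 and 1890.3 CPM in Trp53ΔIECAktE17K tumours, against 2486, 2119.6, 2062 and 2507 CPM in Trp53ΔIEC tumours, with no overlap (log2 fold change −0.60 ± 0.20, edgeR adjusted p = 0.14, DESeq2 adjusted p = 0.0416). Esrp1, an epithelial splicing factor, differed by −0.49 ± 0.15 in log2 (edgeR adjusted p = 0.107, DESeq2 0.016) and Vil1, villin of the brush border, −1.21 ± 0.40 (edgeR adjusted p = 0.138, DESeq2 0.032). Of 12 stromal genes, edgeR called 8 higher and 0 lower (median 1.48), with summed levels of 5128 to 8011 CPM in Trp53ΔIECAktE17K tumours and 2386 to 3639 CPM in Trp53ΔIEC tumours, among them the smooth muscle genes Cnn1, Des and Tagln with log2 fold changes of 3.13 ± 0.26, 3.81 ± 0.32 and 2.28 ± 0.24 (edgeR adjusted p 0.00189, 0.00196 and 0.00532). Of 9 tested of 10 heart muscle genes, 7 were higher (median 5.92), and the cardiac genes Actc1, Myh6 and Mybpc3 had means of 34.9 ± 3.27, 53.5 ± 4.42 and 7.73 ± 0.553 CPM in Trp53ΔIECAktE17K tumours, against 0.342 ± 0.147, 0.0748 ± 0.101 and 0.126 ± 0.0663 CPM in Trp53ΔIEC tumours. Of 10 hepatocyte genes 9 were tested (median −1.36). Of these, edgeR called 1 lower, and DESeq2, which gave an adjusted p for 8, called 3 lower (Crp, Alb and Fga). Crp, an acute phase protein, had 0.0423, 0, 0 and 0 CPM in Trp53ΔIECAktE17K tumours, against 5.17, 5.64, 4.8 and 4.84 CPM in Trp53ΔIEC tumours. Of 14 myeloid genes edgeR, DESeq2 and limma-voom called 0, and 2 had an edgeR unadjusted p under 0.05 (Cd68 log2 fold change 1.16 ± 0.44, edgeR adjusted p = 0.182; Mmp9 −1.58 ± 0.63, adjusted p = 0.198).

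Genes of other secretory and absorptive cells were mostly uncalled by edgeR, which called 4.2% of all tested genes (DESeq2 13.2%, limma-voom 3.13%). The all-gene share at an edgeR unadjusted p under 0.05 was 20.8%. Of 12 goblet cell genes 11 had a positive log2 fold change, edgeR called 0 (2 at an unadjusted p under 0.05), DESeq2 1 (Retnlb) and limma-voom 0 (median 0.82). The antimicrobial resistin-like Retnlb had 369.5, 339, 207 and 1095 CPM in Trp53ΔIECAktE17K tumours, against 239.7, 66.1, 191 and 168 CPM in Trp53ΔIEC tumours (log2 fold change 1.60 ± 0.57, edgeR adjusted p = 0.158, DESeq2 0.0396), and Agr2, a mucin-folding isomerase, 1.18 ± 0.45 (adjusted p = 0.178). Of 10 deep crypt secretory genes edgeR called 1 (DESeq2 2, Spdef and Kit; limma-voom 0): Spdef, a secretory lineage factor, rose, with 14.4, 43, 24.4 and 38.7 CPM in Trp53ΔIECAktE17K tumours and 12.4, 10.3, 11.2 and 7.07 CPM in Trp53ΔIEC tumours (log2 fold change 1.56 ± 0.36, edgeR adjusted p = 0.0494). That call was lost without any 1 of Trp53ΔIECAktE17K replicates 2, 3 and 4 or any Trp53ΔIEC replicate (edgeR adjusted p 0.0617 to 0.129), and with limma-voom (0.104), DESeq2's scaling in edgeR (0.0513), no filter (0.0524), the title letter as a term (0.167) and B-lettered tumours alone (0.114). Of 16 colonocyte genes edgeR and limma-voom called 1 higher and 1 lower, and DESeq2 called 4 higher and 1 lower: Guca2a, guanylin, with 189, 72.6, 85.1 and 189 CPM in Trp53ΔIECAktE17K tumours, against 42.9, 25.2, 28.3 and 16.8 CPM in Trp53ΔIEC tumours (log2 fold change 2.24 ± 0.41, adjusted p = 0.0271), and Slc9a3, the apical sodium-proton exchanger, with 3.47, 0.7, 4.07 and 2.65 CPM in Trp53ΔIECAktE17K tumours, against 66.9, 43.7, 28.9 and 34.4 CPM in Trp53ΔIEC tumours (log2 fold change −3.99 ± 0.54, adjusted p = 0.0134). The Guca2a call was lost without Trp53ΔIECAktE17K replicate 1 or Trp53ΔIEC replicate 2, 3 or 4 (edgeR adjusted p 0.0742 to 0.0906), and that of Slc9a3 without Trp53ΔIEC replicate 2 (adjusted p 0.0504); with the title letter as a term the adjusted p was 0.103 for Guca2a and 0.0838 for Slc9a3. Of 12 crypt and Wnt pathway genes edgeR called 1 lower (DESeq2 2, limma-voom 1), Ascl2, a stem cell factor (log2 fold change −1.96 ± 0.43, adjusted p = 0.0463), a call lost without any 1 tumour other than Trp53ΔIECAktE17K replicate 3 (edgeR adjusted p 0.06 to 0.118), with no filter (0.0524) or with the title letter as a term (0.119). Of 11 tested small intestine genes edgeR called 0 (3 at an unadjusted p under 0.05) and limma-voom 0, while DESeq2 called 2, Fabp2 and Alpi (median 0.97). Fabp2 had a log2 difference of 1.57 ± 0.41 (edgeR adjusted p = 0.0753, DESeq2 0.00364) and Alpi one of 2.69 ± 0.77 (edgeR 0.0967, DESeq2 0.00586). Of 6 tested gastric genes all 3 tools called 0 (median 0.85, Tff1 and Atp4a edgeR adjusted p 0.293 and 0.339). They also called 0 of 3 tested pancreatic acinar genes (median −0.33), and Cela2a, Cela3b and Amy2a5 had no read in any tumour. DESeq2 gave an adjusted p for only 4 of the 6 gastric, 9 of the 11 small intestine and 15 of the 16 colonocyte genes.

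The induced antimicrobial genes and the cytokine axis above them were set beside the 9. The shares called over all genes were 4.2% by edgeR, 13.2% by DESeq2 and 3.13% by limma-voom. At an edgeR unadjusted p under 0.05 the share was 20.8%. Of 18 antimicrobial genes 16 were tested and edgeR called 2 (median 0.07; DESeq2 5, adding Ltf, Saa3 and Slpi; limma-voom 1, Camp): Chil1, a chitinase-like protein, rose, with 52.1, 97.9, 33.3 and 17.1 CPM in Trp53ΔIECAktE17K tumours and 2.18, 8.54, 8.05 and 2.23 CPM in Trp53ΔIEC tumours (log2 fold change 3.26 ± 0.69, edgeR adjusted p = 0.0412), and Camp, the cathelicidin of neutrophils, had 0.762, 1.65, 0.798 and 0.745 CPM in Trp53ΔIECAktE17K tumours and 0, 0, 0.0559 and 0 CPM in Trp53ΔIEC tumours (adjusted p = 0.0107), levels that rest on few reads. The Chil1 call was lost without Trp53ΔIECAktE17K replicate 1 or 2 or any 1 Trp53ΔIEC replicate (edgeR adjusted p 0.0819 to 0.108), with limma-voom (0.0649) and with no filter (0.0531). With the title letter as a term its log2 fold change was 2.26 (adjusted p = 0.184). The Camp call was lost without Trp53ΔIEC replicate 2 (edgeR adjusted p 0.053) or 4 (0.0521). Of 18 tested genes of the interleukin-22 and interleukin-17 axis edgeR called 0 (1 at an unadjusted p under 0.05), DESeq2 1 (Il22ra1) and limma-voom 0 (median −0.15). Il22ra1, the epithelial receptor chain for interleukin-22, had 1.1, 1.52, 0.378 and 3.4 CPM in Trp53ΔIECAktE17K tumours, against 4.4, 5.64, 7.15 and 4.79 CPM in Trp53ΔIEC tumours, with no overlap (log2 fold change −1.78 ± 0.58, edgeR adjusted p = 0.133, DESeq2 0.0208). Tlr4, the receptor for bacterial lipopolysaccharide, differed by −0.83 ± 0.37 in log2 (adjusted p = 0.253). The ligand Il22 was too low to test, with 0.423, 0.123, 0.042 and 0.14 CPM in Trp53ΔIECAktE17K tumours and 0, 4.02, 0.335 and 0.419 CPM in Trp53ΔIEC tumours, and Il17a had 0.72, 1.48, 0.504 and 0.931 CPM in Trp53ΔIECAktE17K tumours and 0.0383, 12.7, 1.96 and 0.884 CPM in Trp53ΔIEC tumours. The tumour with the highest Il22 and Il17a, Trp53ΔIEC replicate 2, was the highest Trp53ΔIEC tumour for Reg3g but not for Reg3b. Over both genotypes, Reg3b and Reg3g were highest in Trp53ΔIECAktE17K replicate 4, where Il22 had 0.14 CPM and Il17a 0.931 CPM. A link between these cytokines and the Reg genes was not tested.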

How the data were processed

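Whole colon tumours, 4 Trp53ΔIECAktE17K and 4 Trp53ΔIEC, were extracted with the RNeasy Mini Kit and made into TruSeq mRNA v2 libraries, per the labels' protocols; that kit selects polyadenylated RNA and does not keep strand. The deposited values are raw read counts per gene, 1 table per tumour. The submitters' processing notes list HTSeq 0.6, DESeq2 1.8.1, STAR 2.3.0, CASAVA 1.8.2 and SAMtools 1.2 with no role or order, and genome build mm10. Reads in no feature were 9.74% to 11.7% and ambiguous reads 1.93% to 2.32% of unique reads, and they were kept out of library sizes. Alignments counted as not unique numbered 0.693 to 0.916 per assigned read and were left out of the gene counts, so genes with near-identical copies are undercounted.

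Of the 38355 gene IDs, 36602 (95.4%) matched GENCODE M21 on GRCm38, which supplied symbols, positions and exon lengths. Counts were filtered with filterByExpr, scaled by TMM and tested with the quasi-likelihood F-test of edgeR 4.0.16 (R 4.3.3) with genotype as the only term, over all 16539 genes that passed, with Benjamini-Hochberg adjustment and a threshold of 0.05. All 9 members passed the filter. Log2 CPM used a prior count of 2, and likeness was taken among genes with an average log2 CPM of at least 1. Alternatives were DESeq2 1.42.0, limma-voom (limma 3.58.1), other scalings, no filter, the replicate number as a block, the title letter as a term, and each tumour left out. The fit on B-lettered tumours alone and the letter's own coefficient were chosen after seeing the data. The fit was also tried on simulated counts that gave every gene the same variability, so that trial does not cover genes as variable as the 9. Read totals of this size limit counting error for all but the lowest genes, and differences between tumours set the precision.

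Named genes were the 9 members, up to 3 called genes or the 2 of smallest p from each other list, and the 3 genes most like each member; genes named only as DESeq2 calls were added after their values were seen. The members and lists (Paneth, Reg family, goblet, deep crypt secretory, induced antimicrobial, interleukin axis, colonocyte, epithelium, crypt and Wnt, small intestine, pancreas, gastric, myeloid, stroma, heart, hepatocyte) were chosen with earlier results of these data known. Trp53, Lyz2, the phospholipase cluster, Epcam, the defensins, the remaining Reg genes, Il22, Il17a, Mptx2, Pnliprp1, Habp2 and Ltf are shown in addition, some chosen after their values were seen.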

Additional observations from a re-analysis of the deposited data

Results flagged for a closer look

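Within each group of 4 tumours, a tumour was picked out when the gap to its nearest neighbour took up most of the group's range of log2 CPM, by Dixon's 95% limit. Over 62 genes and 124 groups, 10 were picked out, and chance picks out about 1 in 20 groups. Among the 9 members it was met once, by Lyz1 in Trp53ΔIEC replicate 4, which was low with a gap of 0.881 of the range.

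Low tumours were also Trp53ΔIECAktE17K replicate 3 for Mmp7 (0.848), Ascl2 (0.917) and Pla2g2d (0.866). High tumours were Trp53ΔIECAktE17K replicate 2 for Camp (0.916) and Cd68 (0.926), and replicate 4 for Esrp1 (0.921) and Reg2 (1). Trp53ΔIECAktE17K replicate 1 was high for Crp (1), and Trp53ΔIEC replicate 3 was high for Camp (1); in these 2 cases and for Reg2 the other 3 tumours of the group had no read. Pla2g2a was not picked out, since its 2 high Trp53ΔIECAktE17K tumours lie close to each other.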

How the results depend on the processing

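The count of 0 called among the 9 members held under every alternative but DESeq2, which called 1. Over all genes, DESeq2 called 2169, against 694, while the replicate block called 50, the letter term 96, the B-lettered tumours alone 26, and leaving out 1 tumour 74 to 949. With the letter as a term and in the B-lettered tumours alone, log2 fold changes changed sign for Lyz1 (0.27 and 0.24), Pla2g2a (−0.88 and −0.91), Ang4 (−0.96 and −0.99), Lypd8 (0.21 and 0.19) and Lyz2 (−0.08 and −0.11). Ang4 was also negative with limma-voom (−0.90) and the replicate block (−0.71). Leaving out 1 tumour gave ranges of −1.43 to 0.97 for Ang4, −0.16 to 1.31 for Reg3b, −0.47 to 1.24 for Reg3g, −0.91 to 0.41 for Reg4, −2.09 to 0.12 for Pla2g2e, −0.27 to 0.63 for Pla2g5, −5.17 to 0.98 for Mptx2, −2.46 to 0.69 for Habp2 (0.09 with the block) and 2.35 to 3.53 for Pla2g2a (adjusted p 0.0874 to 0.341). For the members that kept their sign it gave −2.45 to −0.10 for Lyz1, −1.92 to −0.59 for Itln1, −1.86 to −0.45 for Dmbt1 and −1.35 to −0.02 for Lypd8. The block also ended the calls of Spdef, Camp, Chil1, Slc9a3, Guca2a and Ascl2 (edgeR adjusted p 0.0579 to 0.176). The cause was not tested. Of the member values, 129 kept their direction and side of the threshold and 14 changed sign.

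Tumours of the 2 genotypes share only a replicate number. Same-numbered tumours had deviations from their group means that correlated at −0.04, 0.01, −0.24 and 0.01, and no Trp53ΔIECAktE17K tumour correlated best with its own number. With 4 tumours a group and the spread described, only large differences in these genes could pass the threshold.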

Other observations

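Some antimicrobial and secretory genes were carried by single tumours and were chosen after their values were seen. Mptx2, a mucosal pentraxin of Paneth cells, had 27.3, 6.63, 1.47 and 20.5 CPM in Trp53ΔIECAktE17K replicates 1 to 4, against 1336, 12.5, 6.09 and 2.47 CPM in Trp53ΔIEC replicates 1 to 4; its log2 fold change of −4.60 ± 2.05 (edgeR adjusted p = 0.25) was 0.98 without Trp53ΔIEC replicate 1. Pnliprp1, a pancreatic lipase-related protein, was highest in the same tumour, with 191, 3.99, 5.38 and 129 CPM in Trp53ΔIECAktE17K tumours and 2548, 394, 129 and 21.8 CPM in Trp53ΔIEC tumours (adjusted p = 0.308), and so was Habp2, a hyaluronan-binding protease, with 2.37, 17.3, 4.58 and 3.07 CPM in Trp53ΔIECAktE17K tumours and 59.9, 4.36, 7.82 and 0.465 CPM in Trp53ΔIEC tumours. That tumour was the lowest of all 8 for Reg3b and Reg3g and the highest for Reg4.

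Ltf, lactoferrin, an iron-binding antimicrobial protein of neutrophil granules and glandular epithelium, was highest in the 2 tumours that were high for Pla2g2a, with 579.6, 1743, 108 and 47.2 CPM in Trp53ΔIECAktE17K replicates 1 to 4, against 15.9, 56.3, 106 and 36 CPM in Trp53ΔIEC replicates 1 to 4 (log2 fold change 3.53 ± 1.13, edgeR adjusted p = 0.126; DESeq2 called it). The 2 tumours ranked in the opposite order for the 2 genes.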
